A study of Mus musculus with 62 samples.

Results

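Scgb3a1 (secretoglobin family 3A member 1, ENSMUSG00000064057.12) is 1 of 47643 genes measured by RNA-seq in mouse diaphragm, the thin skeletal muscle that drives breathing. It was selected on its measured TPM, for a higher level in mice with a cachectic tumour, so its difference between cachectic and other mice is given here as a description, with no test. TPM values (transcripts per 1000000) scale each gene for its length and each library to the same total. The gene passed the filter on low values, at least 1 TPM in at least 5 libraries, with 13578 of the genes. It passed only through the cachectic mice: 17 of 22 cachectic libraries held 1 TPM or more, against 2 of the other 40.

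The study followed cachexia, the loss of muscle and fat that accompanies some cancers, in 62 female mice, each 1 library. Mice aged 2 months carried melanoma cells of a cachectic tumour (CAC) or of a non-cachectic tumour (NCAC), or were mock-injected with no cells (Con), and diaphragms were taken 2, 4, 6 and 8 weeks later. Each condition held 5 mice, except CAC at 8 weeks with 7. CAC and NCAC each stand for 1 patient-derived human melanoma xenograft, so that cachexia and the particular xenograft cannot be told apart. The design text names NCI Ath/nude mice, which lack a normal T cell compartment and accept human tumours, whereas the sample labels name C57BL/6J. The myofiber markers were abundant in every library, their sum over 12 genes lying between 31689 and 95773 TPM.

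Secretoglobins are small secreted proteins, best known from the lining of the airways, where Scgb1a1 marks club cells. Scgb3a1, also called HIN-1 or UGRP2, is made there by secretory epithelial cells, and the human gene is often silenced by promoter methylation in breast cancer. In mouse airway cells oncostatin M, a cytokine of the IL-6 family, raises Scgb3a1 through STAT transcription factors. These cytokines bind receptors that pair with gp130 (Il6st), activate JAK kinases and STAT3, and induce Socs3, which then inhibits the same signal.

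The gene lies on chromosome 11 of GRCm38, at chr11:49663610-49665118 on the plus strand, a span of 1509 bases that no other annotated gene overlaps. The GENCODE annotation gives a transcript of 493 bases with 3 exons and 104 codons, and another of 598 bases with 4 exons and 94 codons. The TPM values are per gene, so the level of each transcript was not measured. The 250 bases before the RefSeq start, chr11:49663345-49663594 (GRCm38.p6, plus strand), are shown because the oncostatin M signal acts through STAT factors. Capitals mark the match to the STAT motif TTCNNNGAA, which reads the same on both strands:

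Scgb3a1 promoter: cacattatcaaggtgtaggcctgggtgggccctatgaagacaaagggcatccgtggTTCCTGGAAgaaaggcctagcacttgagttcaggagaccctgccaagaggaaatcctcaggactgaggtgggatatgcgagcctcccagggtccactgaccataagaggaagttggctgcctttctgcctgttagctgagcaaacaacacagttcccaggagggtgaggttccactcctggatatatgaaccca

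The match lay 194 to 186 bases before the start, and 7.18% of 27025 mouse promoters of this length held at least 1 such match. No match was present in this window, on either strand, to the C/EBP motif TTGCNNAA (in 9.55% of promoters), the AP-1 motif TGANTCA (6.87%), the NF-kB motif (4.00%) or the glucocorticoid receptor motif (0.381%). A match is a description of the letters and no measure of binding.

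Of the 62 libraries 4 stood apart, with 15069 to 16389 genes above 0 and 54.4% to 61.5% of TPM in mitochondrial genes. The other 58 had 17909 to 19057 genes and 32.5% to 50.05%. The 4 were CAC replicates 3 and 4 and NCAC replicate 5 at 2 weeks and CAC replicate 3 at 8 weeks. The values below include them unless the text says otherwise. TPM keeps no read depth, so the number of reads behind a low Scgb3a1 value is unknown.

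Scgb3a1 was detected at a low level in every library, and no library was at 0. At 2 weeks its level in Con mice was 0.234, 0.268, 0.569, 0.175 and 0.355 TPM in replicates 1 to 5. In NCAC mice it was 0.163, 0.251, 0.325, 0.932 and 0.717 TPM. In CAC mice it was 0.472, 0.694, 0.648, 1.09 and 0.803 TPM. The groups overlapped at this time: 4 of 5 CAC libraries were above every Con library, but 1 of 5 was above every NCAC library. Without the few-gene libraries, 2 of 3 CAC libraries were above every Con library and 0 of 3 above every NCAC library.

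At 4 weeks the cachectic libraries began to separate. Con mice had 0.331, 0.490, 0.5001, 0.960 and 0.0826 TPM of Scgb3a1, the last being the lowest value of all 62. NCAC mice had 0.774, 0.163, 0.240, 0.422 and 0.738 TPM. CAC mice had 0.820, 4.13, 3.14, 3.56 and 1.75 TPM. CAC replicate 1 lay within the range of Con mice, whereas the other 4 were above each of the 40 Con and NCAC libraries of the whole series.

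At 6 weeks Con mice had 0.177, 0.837, 0.352, 0.252 and 0.809 TPM, and NCAC mice had 0.701, 0.171, 1.13, 0.741 and 0.594 TPM. CAC mice had 6.96, 4.56, 6.06, 12.9 and 2.08 TPM. CAC mice no longer overlapped with Con or NCAC mice, which overlapped with each other, and CAC replicate 5 was the lowest of its group.

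At 8 weeks Con mice had 0.647, 0.428, 0.661, 0.170 and 1.19 TPM, the last the highest value outside the cachectic group. NCAC mice had 0.417, 0.281, 0.431, 0.260 and 0.330 TPM. In the 7 CAC mice the lowest value was 2.24 TPM, the median 12.5 and the highest 18.3. The lowest came from CAC replicate 3, a few-gene library, and the next lowest was 5.82 TPM. Every CAC library at 6 and 8 weeks, 12 of 12, lay above all 40 Con and NCAC libraries, whose median was 0.420 TPM.

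**Figure D1:**
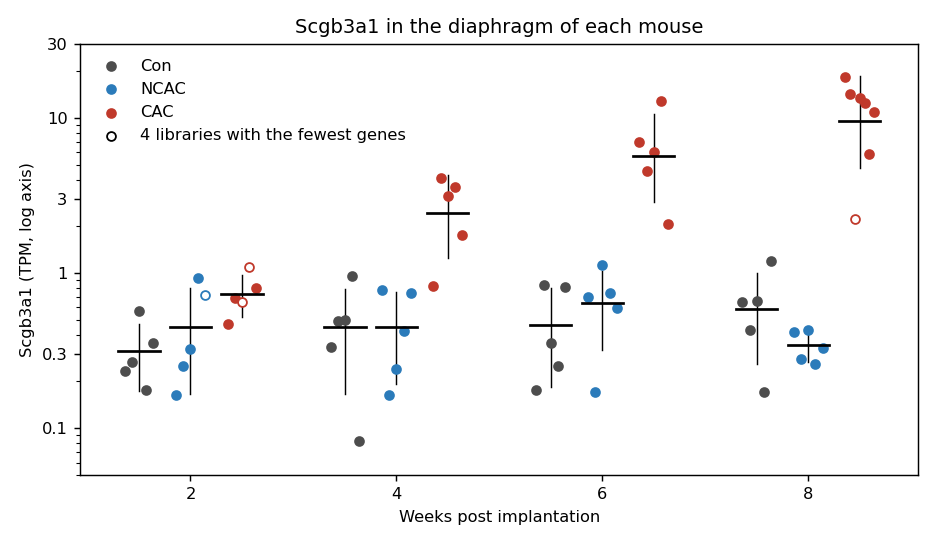
TPM of Scgb3a1 (log axis) in each diaphragm library against weeks post implantation for Con, NCAC and CAC mice, with open circles for the 4 libraries with the fewest genes. Horizontal lines are the mean of log2(TPM + 1) turned back to TPM, and vertical lines are 1 SD on that scale either side. CAC libraries range from 0.472 to 1.09 TPM at 2 weeks and from 2.24 to 18.3 TPM at 8 weeks, while Con and NCAC libraries stay between 0.0826 and 1.19 TPM.

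Mean levels of Scgb3a1 in CAC mice were 0.742 ± 0.229 TPM at 2 weeks (SD, n = 5), 2.68 ± 1.36 at 4 weeks (n = 5), 6.52 ± 4.03 at 6 weeks (n = 5) and 11.1 ± 5.40 at 8 weeks (n = 7). The ratio of CAC to Con means was 2.32, 5.67, 13.4 and 17.9 at the 4 times in turn, and without the few-gene libraries it was 2.05 at 2 weeks and 20.2 at 8 weeks. The CAC mean at 8 weeks without replicate 3 was 12.5 TPM. On the log2(TPM + 1) scale, which understates changes of low genes, the CAC minus Con difference was 0.40 (SE 0.11), 1.25 (SE 0.31), 2.20 (SE 0.38) and 2.74 (SE 0.37). The CAC minus NCAC difference on the same scale was 0.26, 1.25, 2.03 and 2.98. Without the few-gene libraries the differences were 0.33 from Con and 0.25 from NCAC at 2 weeks, and 3.03 and 3.27 at 8 weeks. These 2 sets of differences share the CAC libraries. With the TPM rescaled by median ratios or by quantiles, the CAC minus Con difference of Scgb3a1 at 6 weeks was 2.02 and 1.96, and at 8 weeks 2.77 and 2.82. The corresponding median over all 13578 genes moved from 0.17 to 0.02 and -0.01 at 6 weeks.

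In the order of mean log2 levels the 4 CAC conditions came first, from 8 weeks down to 2 weeks. Below them followed NCAC at 6 weeks, Con at 8 and 6 weeks, NCAC at 2 and 4 weeks, Con at 4 weeks, NCAC at 8 weeks and Con at 2 weeks. The steps from CAC at 6 to 4 weeks (0.96) and from CAC at 4 to 2 weeks (0.99) exceeded the larger SD of the neighbouring conditions on the log2 scale. No other neighbouring pair did, including CAC at 8 and 6 weeks, which differed by 0.67 (SE 0.49), or by 0.95 (SE 0.41) without the few-gene library. Ranked by TPM among all genes, Scgb3a1 was at a median rank of 5583 in CAC mice at 8 weeks and of 13334 in Con mice at 8 weeks.

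The comparisons that the choice of the gene did not use were NCAC against Con and Con over time. None of the 5 passed a test. The NCAC minus Con difference in log2 level was 0.14 at 2 weeks (95% interval -0.45 to 0.73, and 0.08 without the few-gene libraries), 0.00 at 4 weeks (-0.59 to 0.59), 0.17 at 6 weeks (-0.43 to 0.76) and -0.24 at 8 weeks (-0.83 to 0.35). Adjusted p over all genes tested, from limma with Benjamini-Hochberg adjustment, was 0.798, 1, 1 and 1, and two-sided exact permutation tests gave p = 0.381, 0.992, 0.405 and 0.143. Con at 8 weeks minus Con at 2 weeks was 0.27 (95% interval -0.32 to 0.86, limma adjusted p = 1), and the exact permutation p was 0.143. Adjusted over the 5 comparisons, the exact permutation p was 0.357 at the lowest, and 5 mice against 5 could reach 0.00794. The limma spread is shared by all 12 conditions and so includes the wide spread of the CAC mice, so that its intervals are wider than the NCAC and Con mice alone would give.

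Over all genes the share called at an adjusted p under 0.05 was 4.43% for NCAC against Con at 2 weeks, 0% at each of 4, 6 and 8 weeks, and 3.28% for Con at 8 against 2 weeks. At the 3 times with no gene called by limma, 68, 100 and 55 of 13578 genes had an unadjusted limma p under 0.05. Each is a smaller share than the 0.05 that chance alone would give. A count of 0 genes called therefore does not show that NCAC and Con mice were alike. Both comparisons with calls use Con at 2 weeks, where liver transcripts stood high in replicates 2, 4 and 5, with a mean log2 level of the liver list of 8.58 to 10.34, against 0.62 and 2.81 in the other 2. NCAC at 2 weeks also holds a few-gene library. The part of these libraries in the calls was not tested. Scgb3a1 in Con replicates 2, 4 and 5 was 0.268, 0.175 and 0.355 TPM, within the range of the other Con libraries.

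Scgb3a1 was the only member of its family that passed the filter. Of 69 secretoglobin genes in the table, 29 of them pseudogenes by their symbol, 65 were listed at 0 in all libraries. Besides Scgb3a1, Scgb1a1, Scgb3a2 and Scgb1c1 were above 0 somewhere, and none passed the filter. Scgb1a1, the club cell secretoglobin, was above 0 in 18 libraries and reached 10.5 TPM in NCAC replicate 2 at 6 weeks, where Scgb3a1 was 0.171 TPM. In the 12 CAC libraries at 6 and 8 weeks Scgb1a1 did not exceed 0.122 TPM. Scgb3a2, which oncostatin M lowers in airway cells, was above 0 in 1 library, the same NCAC replicate, at 0.116 TPM. Scgb1c1 was above 0 in 9 libraries and at most 0.586 TPM. A count of 0 of family members called is thus a count over no tested gene.

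A list of 33 genes, the regulator list, was taken from families linked to Scgb3a1 in airway cells. It held IL-6 family ligands, their receptors, JAK kinases, STAT factors, SOCS inhibitors and C/EBP factors. The airway factors Nkx2-1, Foxa1 and Foxa2 were added, with Sp1 and Sp3. Whole families were taken, so not every member is known to act on Scgb3a1. Of the 33 genes, 25 were tested. In CAC against Con mice, 4 of 25 rose at 6 weeks (16%, against 5.62% of all genes) and 0 fell (1.17% of all genes). At 8 weeks 4 rose (16%, against 6.65%) and 2 fell (8%, against 8.12%). Against NCAC mice, 3 rose at 6 weeks (12%, against 4.28%) and 0 fell (1.57%), and at 8 weeks 3 rose (12%, against 6.75%) and 2 fell (8%, against 6.19%). The median log2 difference from Con of the 25 genes was 0.24 at 6 weeks and 0.07 at 8 weeks, beside 0.17 and -0.09 over all genes. Both comparisons share the CAC libraries, so the second is no independent count. Without the 4 few-gene libraries the numbers that rose against Con were 8 and 9. The share of all genes called in that fit is not given here, so these counts cannot be set against the shares above.

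Of the ligands, oncostatin M (Osm), Il6, Lif and Il11 were below the filter and at most 0.816 TPM in any library. Cntf, ciliary neurotrophic factor, rose against Con at 8 weeks by 0.68 in log2 (SE 0.20, limma adjusted p = 0.0123). That call was lost in 3 of 20 alternatives, one of which left out Con replicate 1 at 8 weeks, and against NCAC the difference was 0.48 (limma adjusted p = 0.106). Ctf1, cardiotrophin 1, fell by 0.53 in log2 against Con at 8 weeks (limma adjusted p = 0.00292). Clcf1 did not pass the test.

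The receptor subunit that moved most with Scgb3a1 was Osmr, which pairs with gp130 to bind oncostatin M (ENSMUSG00000022146.12, chr15:6813577-6874969, minus strand). Its level at 6 weeks was 21.8, 18.0, 17.3, 18.5 and 13.8 TPM in CAC mice. It was 3.90, 4.08, 5.93, 4.45 and 4.73 TPM in Con mice and 4.96, 5.37, 6.11, 5.21 and 4.34 TPM in NCAC mice. At 8 weeks the 7 CAC mice had a lowest value of 2.47, a median of 17.5 and a highest of 19.1 TPM. The CAC libraries at both times lay above every Con and NCAC library, except replicate 3 at 8 weeks, which at 2.47 TPM was below all of them. Osmr rose by 1.75 in log2 against Con at 6 weeks (SE 0.26, limma adjusted p = 6.61e-06) and by 1.33 at 8 weeks (SE 0.24, limma adjusted p = 6.68e-05), or by 1.68 without the few-gene libraries. Il6st, Lifr, Il6ra, Il11ra1 and Cntfr did not pass in either week. Il6st at 6 weeks was 51.0 to 80.6 TPM in CAC mice, against at most 49.2 in Con and 44.9 TPM in NCAC mice. Its log2 difference from Con was 0.68 (limma adjusted p = 0.224). At 8 weeks Il6st ranged from 6.77 to 75.3 TPM in CAC mice, the lowest being replicate 3, and from 32.3 to 45 TPM in Con mice.

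Socs3, the feedback inhibitor that STAT3 induces (ENSMUSG00000053113.3, chr11:117966079-117970047, minus strand), had the largest difference of the list at 6 weeks. It was 61.7, 27.7, 32.6, 59.1 and 27.9 TPM in CAC mice at that time. Con mice had 3.75, 4.24, 5.23, 3.67 and 6.41 TPM, and NCAC mice 7.21, 8.68, 8.52, 5.57 and 3.61 TPM. At 8 weeks the CAC mice ranged from 3.04 through a median of 47.0 to 62.5 TPM. The lowest was again replicate 3, and the other 6 were above all Con and NCAC libraries. Socs3 rose by 2.85 in log2 against Con at 6 weeks (SE 0.38, limma adjusted p = 1.06e-06) and by 2.17 at 8 weeks (SE 0.35, limma adjusted p = 1.03e-05), or by 2.68 without the few-gene libraries. Socs2 and Cish did not pass, and Socs1 was below the filter.

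The other 5 genes called against Con had the same direction without the few-gene libraries, with log2 differences at 8 weeks of 0.78 for Cntf, -0.50 for Ctf1, 1.18 for Stat3, -0.75 for Stat5a and 2.68 for Cebpd. Among the transcription factors, Stat3 rose by 1.31 in log2 against Con at 6 weeks (limma adjusted p = 0.0174), and at 8 weeks its difference was 0.68 (limma adjusted p = 0.182). Without CAC replicate 1 at 6 weeks the call at 6 weeks was lost, and without CAC replicate 3 at 8 weeks Stat3 passed at 8 weeks. Stat5a fell by 1.00 in log2 at 8 weeks (limma adjusted p = 0.00382), and Stat5b did not pass. Cebpd, a C/EBP factor of the acute phase response, rose by 1.71 at 6 weeks (limma adjusted p = 0.0199) and 2.37 at 8 weeks (limma adjusted p = 0.000104). Its call at 6 weeks was lost without CAC replicate 1 or CAC replicate 2. Cebpa, Cebpb, Cebpg, Sp1, Sp3 and the 3 tested JAK kinases Jak1, Jak2 and Tyk2 did not pass. The airway factor Nkx2-1, which drives secretoglobin genes in the lung, was at most 0.0170 TPM in any library and 0 in all 12 CAC libraries at 6 and 8 weeks. Foxa1 and Foxa2 were below the filter.

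**Figure D2:**
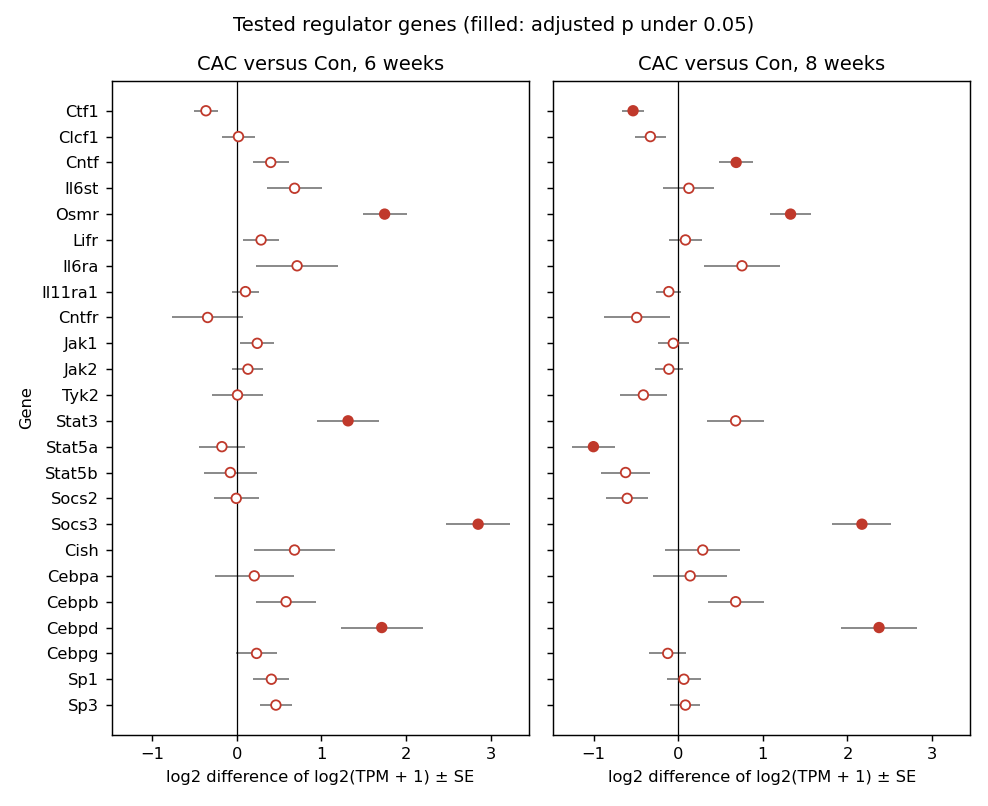
Difference between CAC and Con mice in log2(TPM + 1), with its SE from limma, for tested genes of the regulator list at 6 weeks (left) and 8 weeks (right). Filled points have an adjusted p under 0.05. Socs3 (2.85 and 2.17), Osmr (1.75 and 1.33) and Cebpd (1.71 and 2.37) are filled in both panels, while Jak1, Jak2, Lifr and Il6st are open in both.

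Genes that follow Scgb3a1 were found by Pearson's r of log2(TPM + 1) over the 62 libraries, as a description. The points share their condition and the total of each library, so genes that differ between cachectic and other mice follow one another by that alone. Over the 62 libraries 94 of 13577 genes had r of 0.8 or more and 11 had r of -0.8 or less, and the median r was 0.11. The 10 highest were Tmem252 (0.93), Apod (0.91), Cd63 (0.91), 1200007C13Rik (0.91), Lcn2 (0.89), Glrx3 (0.88), Serpina3e-ps (0.88), Mt2 (0.88), Csf2rb2 (0.88) and Mt1 (0.88). Apod (apolipoprotein D) and Lcn2 (lipocalin 2) are secreted carriers of small lipophilic molecules, and Mt1 and Mt2 are metallothioneins, which bind zinc. Csf2rb2 encodes a beta chain of the interleukin 3 receptor and has a close copy, Csf2rb, so its reads may be split between them. Socs3 stood at rank 12 with r of 0.87 and Osmr at rank 14 with r of 0.87.

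Tmem252 (ENSMUSG00000048572.5, chr19:24674008-24682233, plus strand), a transmembrane protein gene, was the closest companion and was likewise low outside cachexia. In CAC mice at 6 weeks it was 20.7, 8.01, 5.68, 14.7 and 5.76 TPM, and at 8 weeks it ran from 2.23 through a median of 16.1 to 22.1 TPM. Con and NCAC libraries held at most 0.813 TPM. All 12 CAC libraries at 6 and 8 weeks were above that value, as they were for Scgb3a1.

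The companions separated at 4 weeks, a difference picked out after the values were seen. Socs3 was above all 40 Con and NCAC libraries in 5 of 5 CAC mice at 4 weeks, Osmr in 5 of 5, Apod in 5 of 5 and Scgb3a1 in 4 of 5. Tmem252, Lcn2 and Mt2 were above them in 2 of 5, CAC replicates 2 and 4. CAC replicate 3 at 4 weeks, for example, had 3.14 TPM of Scgb3a1 and 32.2 TPM of Socs3, but 0.720 TPM of Tmem252 and 4.19 TPM of Lcn2, both within the range of Con and NCAC mice. CAC replicate 1 had Socs3 at 17.0 TPM while its Scgb3a1, 0.820 TPM, was within the Con range. At 2 weeks 0 of 5 CAC libraries exceeded every Con and NCAC library for Scgb3a1, Socs3, Tmem252 or Mt2, and 1 of 5 did for Osmr (replicate 2), Apod (replicate 3) and Lcn2 (replicate 3).

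**Figure D3:**
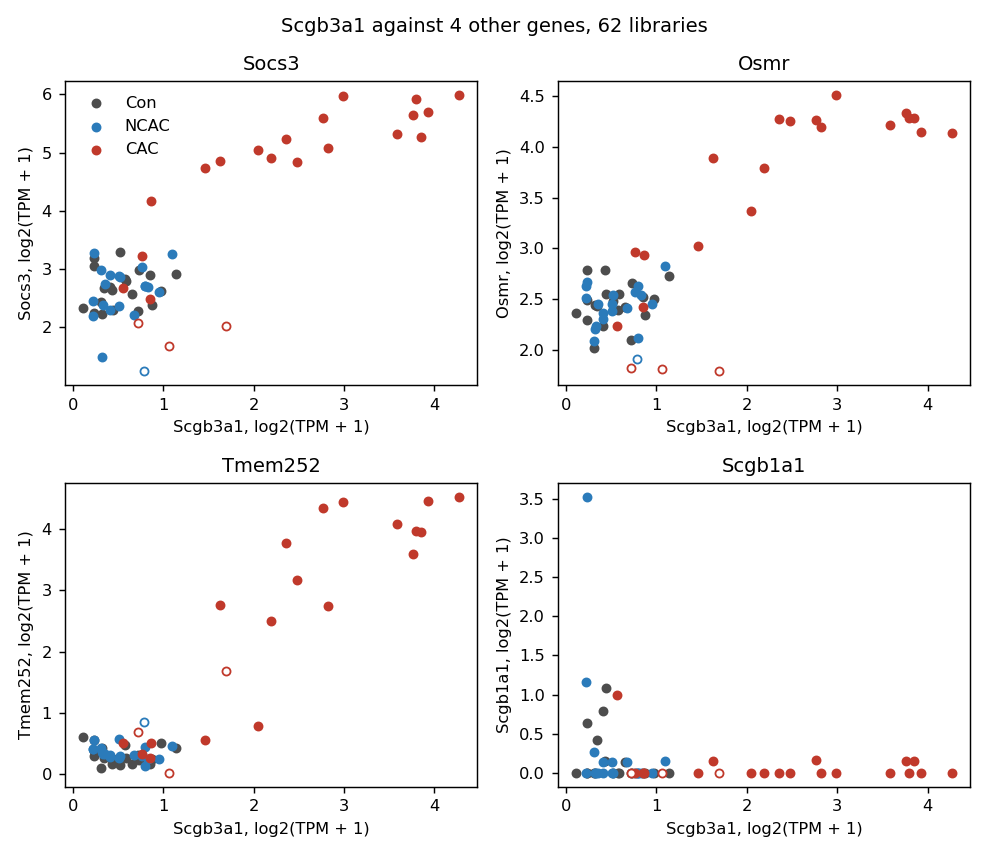
Log2(TPM + 1) of Socs3, Osmr, Tmem252 and Scgb1a1 against that of Scgb3a1 in 62 libraries, coloured by group, with open circles for the 4 libraries with the fewest genes. CAC libraries extend to the upper right for Socs3, Osmr and Tmem252, whereas Scgb1a1 is at most 0.122 TPM in the CAC libraries at 6 and 8 weeks and has its highest value, 10.5 TPM, in a NCAC library with 0.171 TPM of Scgb3a1.

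At the other end, the lowest r over the 62 libraries belonged to Grb14 (-0.89), Cryba4 (-0.86), Mb (-0.85), Nrep (-0.85) and Nmrk2 (-0.83). Grb14 is an adaptor that dampens insulin receptor signalling, Mb is myoglobin, the oxygen-binding protein of muscle, and Nmrk2 is a kinase of the NAD pathway in muscle. Mean Mb was 8043 ± 892 TPM in CAC mice at 6 weeks (SD, n = 5) and 12688 ± 820 TPM in Con mice (n = 5). Nmrk2 averaged 21.5 TPM in CAC mice and 101 TPM in Con mice at 6 weeks.

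These correlations rested largely on the cachectic mice. Over the 40 Con and NCAC libraries, where Scgb3a1 varied between 0.0826 and 1.19 TPM, r was -0.08 for Tmem252, -0.12 for Lcn2, 0.12 for Socs3 and 0.16 for Osmr. Cd63 had r of 0.33 over these 40 libraries, and the median over all genes was -0.06. Over the 22 CAC libraries r was 0.90 for Tmem252, 0.85 for Lcn2, 0.81 for Socs3 and 0.81 for Osmr, beside a median of 0.37 over all genes. Spearman's rho over the 62 libraries was lower than r, for example 0.51 for Tmem252 and 0.71 for Cd63.

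With each library taken as its deviation from the mean of its condition, the differences between groups drop out. The median r over all genes was then 0.23, and 58 genes had r of 0.5 or more. The 10 highest were Gm16174 (0.63), 1200007C13Rik (0.62), Atp5g2 (0.61), Nppc (0.61), Junb (0.60), Socs3 (0.60), Nme2 (0.60), Tmem252 (0.58), Mir17hg (0.58) and Osmr (0.58). Tmem252 and 1200007C13Rik were also among the 10 highest over the 62 libraries. The within-condition values include CAC replicate 3 at 8 weeks, a few-gene library. It was the lowest of its group for Scgb3a1, Socs3, Osmr and Tmem252 alike. Over the 12 CAC libraries at 6 and 8 weeks, leaving it out moved r of Osmr from 0.56 to 0.36. For Mir17hg r moved from 0.52 to 0.18, and for Socs3 from 0.70 to 0.69. Nppc encodes C-type natriuretic peptide, Junb an AP-1 factor and Nme2 a nucleoside diphosphate kinase. Among the 5 lowest were Igkv13-84 (-0.57), Mb (-0.57), Igkv12-46 (-0.54) and Igkv3-10 (-0.53). The Igkv genes are immunoglobulin kappa segments with near-identical copies, so their values are uncertain.

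Over the 12 CAC libraries at 6 and 8 weeks alone, the 10 highest were Sox6os (0.86), Ifitm5 (0.86), Comtd1 (0.85), Gm13889 (0.84), Nme2 (0.84), Nenf (0.84), Toporsos (0.81), Tmem88 (0.81), Rabac1 (0.81) and Fam96b (0.81), beside a median of 0.36 over all genes. That median was -0.14 over 11 libraries without CAC replicate 3 at 8 weeks. Without it, Socs3 had r of 0.69, Tmem252 0.68, Nme2 0.79 and Osmr 0.36. Sox6os and Toporsos are antisense genes, and the sources disagree on whether the library kit marked strand, so that their reads cannot be told apart from those of their partners. A high r among these 12 libraries did not always go with a higher level in CAC mice. Over the 62 libraries r was -0.08 for Sox6os and -0.23 for Comtd1, and positive for the rest of these 10. Mean TPM of Sox6os and Comtd1 was lower in CAC than in Con mice at both 6 and 8 weeks. Toporsos was lower at 6 weeks only and Tmem88 at 8 weeks only. The libraries are few, and Nme2 was the only one of these 10 also among the 10 highest within conditions.

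STAT motif matches in the promoters of the named companions are shown beside that of Scgb3a1, with capitals for TTCNNNGAA (GRCm38.p6, RefSeq, each on the strand of its gene). Of the highest companions over the 62 libraries or within conditions, 16 had a promoter in the table and 3 of these held a match:

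Scgb3a1, 194 to 186 bases before the start: ccgtggTTCCTGGAAgaaagg
Socs3, 154 to 146 bases before the start: ccagccTTCTTAGAAgggagg
Csf2rb2, 15 to 7 bases before the start: ccacaaTTCTGAGAAgcaagc
Gm16174, 168 to 160 bases before the start: aatgatTTCAGAGAAaccgtc

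They lie at chr11:49663395-49663415 (plus), chr11:117969506-117969526 (minus), chr15:78305722-78305742 (minus) and chr7:19816411-19816431 (plus) in turn. The promoters of Osmr and Tmem252 are not among those with a match. Of the same 16 promoters, 2 held a C/EBP match (Lcn2 and Mt2), 1 an AP-1 match (Mt2) and 1 a glucocorticoid receptor match (Mt1). None, 0 of 16, held an NF-kB match. The shares of all promoters were 9.55%, 6.87%, 0.381% and 4.00% in turn, and 7.18% for STAT. The companions were chosen for their likeness to Scgb3a1, so each count is read only beside its share of all promoters.

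Known gene groups of wasting muscle were compared with Scgb3a1 by the median r of their tested genes over the 62 libraries. The metallothionein and zinc transport list had the highest median (0.67 over 6 genes), followed by glucocorticoid targets (0.52 over 11 genes) and atrophy ubiquitin ligases with FoxO factors (0.41 over 11 genes). Endoplasmic reticulum stress genes had a median of 0.33, denervation response genes 0.29, acute phase proteins 0.24 and interferon response genes -0.02, beside 0.11 over all genes. Within conditions the first 3 had medians of 0.36, 0.33 and 0.36 beside 0.23 over all genes, and the acute phase proteins 0.01. Acute phase genes thus ranged widely, from Lcn2 at 0.89 down to -0.01 over the 62 libraries. The regulator list itself had a median of 0.17 over the 62 libraries and 0.31 within conditions.

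**Figure D4:**
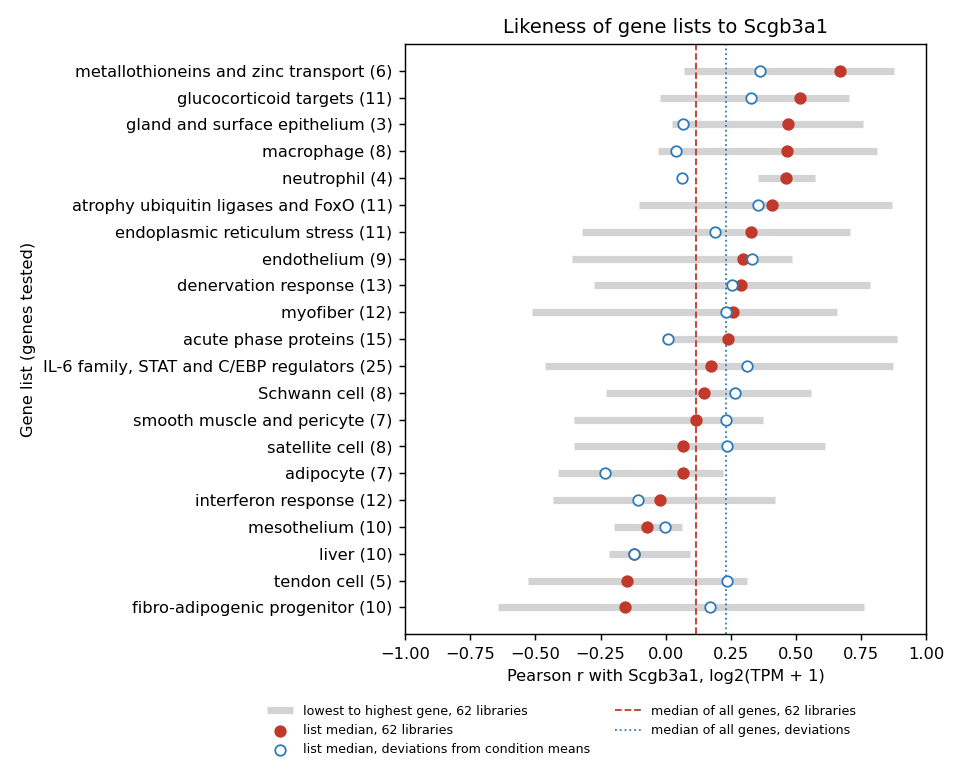
Pearson's r with Scgb3a1 for gene lists with at least 3 tested genes. Grey bars run from the lowest to the highest gene over the 62 libraries, filled points are list medians over the 62 libraries, open points are list medians of deviations from condition means, and the lines mark the medians of all genes (0.11 and 0.23). The metallothionein list has the highest median, 0.67 over the 62 libraries, and falls to 0.36 within conditions.

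Markers of other cell types were summed in each library to see what moves with Scgb3a1. In bulk tissue more cells of a type and more RNA per cell cannot be told apart. Of 15 airway and lung epithelium markers, 6 were at 0 in all 12 CAC libraries at 6 and 8 weeks, namely Scgb3a2, Bpifa1, Bpifb1, Muc5b, Ccdc153 and Nkx2-1. The list summed to between 0.738 and 24.8 TPM there (median 3.12), to 0.394 to 14.2 TPM in NCAC mice (median 1.17) and to 0.292 to 5.42 TPM in Con mice (median 0.972). Cyp2f2, up to 23.98 TPM in these CAC libraries, was the only one of the list tested, and its r with Scgb3a1 was 0.02 over the 62 libraries. Cyp2f2, which liver also expresses, made up most of the highest sums. The 5 highest sums of the series, 24.8 to 103 TPM, were in the 5 libraries with the highest liver list, whose mean log2 level there was 7.64 to 10.34. Without Cyp2f2 the other 14 airway genes summed to 0.292 to 0.872 TPM in CAC mice at 6 and 8 weeks, 0.262 to 11.1 TPM in NCAC mice and 0.148 to 0.469 TPM in Con mice, with medians of 0.501, 0.384 and 0.351 TPM.

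The gland and surface epithelium list summed to 91.9 to 133 TPM in the same CAC libraries, against 58.3 to 84.7 TPM in Con and 54.0 to 97.9 TPM in NCAC mice. Most of it was Amy1, an amylase gene with close copies, at 87.9 to 130 TPM in CAC and 55.3 to 81.2 TPM in Con mice, with r of 0.76 with Scgb3a1, and 3 milk protein genes, Csn2, Lalba and Wap, were at 0 in these CAC libraries. Of the epithelial members, Epcam had a median of 1.73 TPM in CAC, 0.889 in NCAC and 0.655 in Con mice, Krt14 2.06, 2.35 and 1.37 TPM, and Cdh1 0.307, 0.222 and 0.287 TPM. Krt5 and Krt15 had a median of 0 in CAC and Con mice. Neutrophil markers summed to 9.23 to 75.2 TPM in CAC mice, 2.49 to 18.7 TPM in NCAC mice and 4.12 to 15.3 TPM in Con mice. Macrophage markers summed to 281 to 1161 TPM in CAC mice, 235 to 1313 TPM in NCAC mice and 288 to 819 TPM in Con mice. For both lists the groups overlapped. The highest neutrophil sum of the 62 libraries, 181 TPM, lay outside the libraries of 6 and 8 weeks. Over the 62 libraries the macrophage list had a median r of 0.47 and the neutrophil list 0.46, which within conditions were 0.04 and 0.06. Single markers of other lists also had high r, for example Cd163 of macrophages (0.81) and Ly6a of fibro-adipogenic progenitors (0.76). The myofiber list summed to a median of 80203 TPM in CAC, 62277 in NCAC and 60807 in Con mice at 6 and 8 weeks. The adipocyte list summed to a median of 1346, 964 and 830 TPM in turn. In both lists the ranges overlapped. Sums of the remaining lists are not reported here. The part of these cell types in the level of Scgb3a1 was not tested.

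The 5 annotated genes on each side of Scgb3a1 were low or absent in this muscle except for the nearest on each side. Flt4, a receptor of lymphatic endothelium that ends 10.9 kb before it, differed from Con in CAC mice by 0.55 in log2 at 6 weeks (limma adjusted p = 0.515) and by -0.51 at 8 weeks (limma adjusted p = 0.452). Cnot6, a deadenylase subunit gene 6.4 kb after it, differed by 0.51 (limma adjusted p = 0.0666) and 0.03 (limma adjusted p = 0.933). At 6 weeks Cnot6 passed in 4 of 18 alternatives, among them the fit without Con replicate 3 (limma adjusted p = 0.0359) and the fit without the few-gene libraries (limma adjusted p = 0.0022), and Flt4 passed in 1 of 18. Olfr1381, Olfr1380, Gm12190, Gm12191, Gm12192, Gm23813 and Gm12193 were listed at 0 in all libraries, and 1700024J04Rik reached 0.295 TPM.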

How the data were processed

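RNA from 62 mouse diaphragms was extracted with Trizol and sequenced on an Illumina NovaSeq instrument. The library kit is a stranded mRNA kit in the labels and another kit of the same maker in the methods. Reads were quality-trimmed, and CLC Genomics Workbench placed them on GRCm38. The authors deposited the resulting TPM values, 1 column a mouse, and each column sums to 1000000. Whether counting used strand is not given in the sources used here.

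Groups came from the labels' treatment and time. Replicates are separate mice. Log2(TPM + 1) was fitted with limma (version 3.58.1, R 4.3.3, trend on mean level) with 1 mean for each of 12 conditions, over the 13578 of 47643 genes that reached 1 TPM in 5 or more libraries. The study names Kruskal-Wallis and Dunn tests, and Dunn's test was run as an alternative. p-values were adjusted by Benjamini-Hochberg over all genes in each contrast, and a gene was called at an adjusted p under 0.05. The script was tested on simulated data.

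Scgb3a1, the gene lists, the motifs and the comparisons were chosen with earlier results of these data known. Named genes were the 10 highest and 5 lowest by Pearson's r over the 62 libraries and within conditions, the 10 highest over CAC libraries at 6 and 8 weeks, secretoglobins above 0, regulators called against Con, and the 5 neighbours on each side. Osmr, Socs3 and the genes set side by side at 4 weeks, and the marker genes given with values, were singled out after their values were seen. Promoters and gene starts came from RefSeq (GRCm38.p6), gene spans from GENCODE vM21. The protein sequence was not used here. Single genes that the naming rule or the lists hold but the text and plots omit are not reported here.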

Additional observations from a re-analysis of the deposited data

Results flagged for a closer look

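For Scgb3a1, Osmr, Socs3 and Tmem252, the highest or lowest library of each condition was compared with the next by Dixon's gap test on log2(TPM + 1). Of 48 groups checked 6 had a library set apart, where chance alone gives about 5%. No Scgb3a1 group was among them. In CAC mice at 8 weeks, replicate 3, a few-gene library, was set apart on the low side for Osmr (2.47 TPM), Socs3 (3.04 TPM) and Tmem252 (2.23 TPM). Its Scgb3a1, 2.24 TPM, was the lowest of its group without being set apart. The other 3 were Osmr in Con replicate 1 at 2 weeks (3.07 TPM, low), Tmem252 in NCAC replicate 5 at 2 weeks (0.813 TPM, high, also a few-gene library) and Tmem252 in NCAC replicate 1 at 8 weeks (0.486 TPM, high).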

How the results depend on the processing

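None of the 5 tested Scgb3a1 differences passed an adjusted p of 0.05 in any of 100 alternatives. The lowest adjusted p, 0.357, came from the exact permutation test, which was adjusted over the 5 comparisons only. The difference of NCAC from Con at 4 weeks, near 0, changed sign with array quality weights (-0.0454) and ranged from -0.10 to 0.11 when single mice were left out. At 6 weeks array quality weights gave -0.0090. Replicate numbers were not taken as pairs of mice, since in no comparison did all 5 pairs of deviations correlate above 0.1. In CAC against Con at 8 weeks 4 of 5 pairs did, so this rule cannot show that no pairing exists. With the number as a replicate block, 4 regulator genes fell against Con at 8 weeks. The share of all genes that fell in that fit is not given, so this count says nothing about the list beside other genes.

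Counts of regulator genes depended on the fit. The share of all genes called is given for the main fit only. The counts below therefore show how far the calls moved, and not how the list compares with other genes. Median-ratio and quantile scaling each gave 1 fall against Con at 6 weeks, 4 falls against Con at 8 weeks, 1 fall against NCAC at 6 weeks and 5 rises against NCAC at 8 weeks. No filter gave 1 fall against NCAC at 6 weeks. Array quality weights gave 12 rises and 1 fall against Con at 6 weeks, 9 rises at 8 weeks, and 11 rises, 1 fall and 9 rises against NCAC. Fits of only the 2 conditions compared gave 10 rises and 1 fall at 6 weeks and 1 rise and 1 fall at 8 weeks against Con, and 10 rises, 2 falls, 1 rise and 0 falls against NCAC. Without the 4 few-gene libraries, an alternative chosen after seeing the data, there were 8 rises and 1 fall against Con at 6 weeks, 9 rises and 4 falls at 8 weeks, and against NCAC 8 rises and 1 fall, then 9 rises. Leaving out single mice, rises against Con ranged from 2 to 4 at 6 weeks (2 without CAC replicate 1) and from 3 to 7 at 8 weeks (7 without CAC replicate 3), and falls at 8 weeks from 2 to 3. Against NCAC rises ranged from 2 to 3 and from 3 to 7 (7 without CAC replicate 3), and falls at 8 weeks from 0 to 2 (1 without CAC replicate 3, 0 without NCAC replicate 2). The cause was not tested. Osmr and Socs3 were called against Con in 18 of 18 alternatives at 6 weeks and 19 of 20 at 8 weeks, the exception being the fit of only the 2 conditions compared. Cnot6 at 8 weeks turned to -0.0911 with the replicate block and ranged from -0.0259 to 0.20 without single mice, and Flt4 at 8 weeks turned to 0.0806 with array quality weights.

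Of the 10 genes that follow Scgb3a1 most closely over the 62 libraries, 2 were shared with the 10 highest by Spearman's rho, 5 with a pseudocount of 0.1, 3 with median-ratio scaling and 5 without the few-gene libraries. TPM holds no read depth, so the precision of values under 1 TPM is unknown.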
